A study of Rattus norvegicus with 16 samples.

Results

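Cytochrome P450 genes were read in cultured rat hepatocytes treated with SQ1 or with pravastatin, leaving out the best known targets of the drug-sensing receptors and the bile acid enzymes. The set holds every gene whose rat symbol starts with Cyp and a digit, other than Cyp51, Cyp7a1, Cyp7b1, Cyp8b1, Cyp27a1, Cyp1a1, Cyp1a2, Cyp2b2, Cyp2b15, Cyp2b21, Cyp2c6v1, Cyp2c7, Cyp2c11 and the Cyp3a and Cyp4a families. The array carried 46 such genes of 68 P450 genes in all, and 39 of the 46 had a probe that stood well above background in 6 or more of 32 channels, among 20395 genes tested. The rule used no fold change. Of the 39 genes, 35 were above background in all 32 channels, and Cyp4b1 and Cyp11b3 in 31, Cyp4f18 in 21 and Cyp11a1 in 15. The other 7 genes (Cyp11b1, Cyp11b2, Cyp1b1, Cyp24a1, Cyp2a3, Cyp2b12 and Cyp2g1) were above background in 0 to 4 channels and have no fold change here.

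The cells were primary hepatocytes of male Sprague Dawley rats, and all groups were cultured in Williams Medium E. Cultures received 100 µM SQ1, 30 µM pravastatin or no drug from 48 hours after plating, for 48 hours. Each of 16 arrays of the Agilent whole-genome kind, which read 2 dyes at once, held RNA of 1 treated and 1 untreated culture, with 8 arrays per drug and 4 in each dye orientation. SQ1 is known from hepatocyte work as squalestatin 1, an inhibitor of squalene synthase, and pravastatin is a statin, which inhibits HMG-CoA reductase earlier in the same sterol pathway. No dose was common to both drugs. The untreated cultures of same-numbered arrays carry the same control number for both drugs, so the comparisons share control samples. The series text calls the arrays biological replicates, no label says whether cultures came from separate animals, and p-values measure the spread between these arrays.

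Cytochrome P450 enzymes are heme proteins that insert oxygen into drugs, fatty acids, steroids and vitamins, and they draw their electrons from P450 oxidoreductase in the endoplasmic reticulum or from ferredoxin in mitochondria. Hepatocytes in culture are known to lose much of their P450 expression. In the adult rat liver several members of the families Cyp2a and Cyp2c are made in one sex only, under the control of growth hormone.

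Each value is the log2 of treated over untreated, ± SE of the linear model fitted with limma (n = 8 arrays per drug), and a gene is called where its p, adjusted by Benjamini and Hochberg's method over all 20395 genes, is under 0.05. The arrays were scanned on 2 days, with 4 arrays per drug on each, and the control numbers split the same way. No label says whether the days stand for separate cultures. Each slide held 1 drug and was scanned on 1 day, and slide and drug cannot be told apart. On replicate 1 of pravastatin the log ratios were far narrower than on the other 15 arrays, with a median size over all probes of 0.010 against 0.077 to 0.129. With the scanner's processed signals that array, at 0.204, lay within the 0.126 to 0.359 of the others. Columns of the deposited value table correlated at 1.00 with the other drug's array of the same number and at 0.579 to 0.641 with the array of their own label, and drug names here follow the scanner files, whose own names match the sample labels. Which of the 2 sources has the drugs exchanged is not known. If it is the scanner files, every value given for SQ1 is that of pravastatin and the reverse, and every difference between the drugs changes sign. All 6 hepatocyte markers (Alb, Ttr, Apoa1, Tf, Hnf4a and Cps1) were above background on every array.

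More of the 39 genes were lower than higher with either drug. With SQ1, 24 were called lower and 10 higher, and 5 were not called. Over all genes tested, 31.2% were called lower with SQ1, 32.7% higher and 63.9% either way. The median of the 39 genes was −0.28, against 0.01 over all genes. With pravastatin, 23 were called lower, 8 higher and 8 not, where 19.7% of all genes were called lower, 19.4% higher and 39.1% either way, and the median was −0.25 against 0.00. A change of at least 1.5-fold was seen with SQ1 for 14 lower genes and 1 higher gene, and with pravastatin for 6 lower genes and 2 higher genes. The share of all genes that changed as much was not counted, so these numbers have no background beside them. Without replicate 1 of pravastatin, 22 genes were lower and 8 higher with that drug. With the arrays scaled to 1 spread, the SQ1 counts were 9 lower and 5 higher, and 23 lower and 10 higher when that replicate was left out too. Calls over all genes fell with the scaling as well. Of 20395 genes, 13038 were called with SQ1 in the main fit and 6494 after scaling. When that replicate was left out too, 12162 were called.

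**Figure D1:**
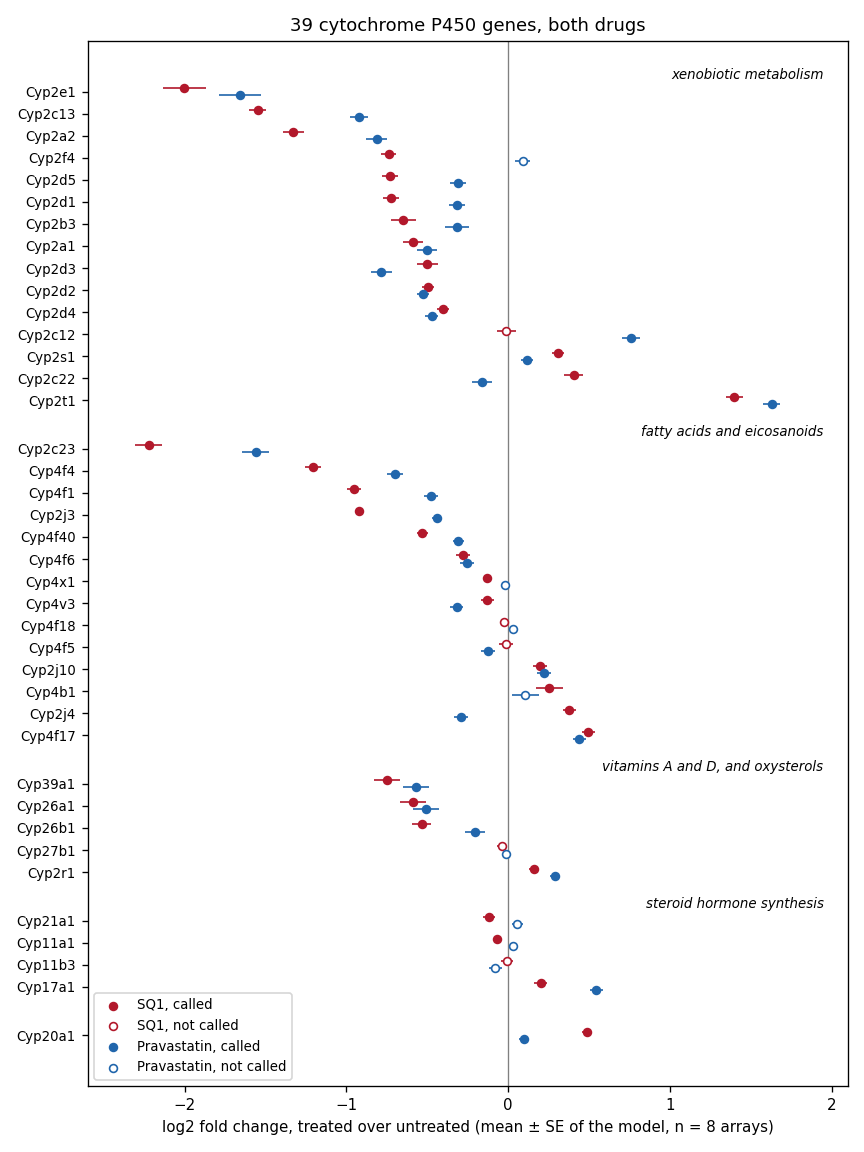
Log2 fold change of treated over untreated cells for the 39 P450 genes, grouped by role and ordered by the value with SQ1. Points are model estimates with bars of 1 SE over 8 arrays per drug (7 for Cyp4x1 with SQ1), filled where called. Most points lie left of 0, and Cyp2t1 stands far to the right with both drugs.

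Cyp2c23, the arachidonic acid epoxygenase of rat liver and kidney, and Cyp2e1, which oxidises ethanol and small solvents, had the deepest falls of the set with both drugs. The log2 value of Cyp2c23 was −2.54 on the lowest SQ1 array, −2.25 at the median and −1.86 on the highest. On the pravastatin arrays it was −1.82, −1.60 and −1.28. Every SQ1 array lay below every pravastatin array, and with either drug the 4 arrays of the second scan day lay below the 4 of the first. The median brightness of the Cyp2c23 probe, after background correction and normalisation, was 7925 in untreated and 1639 in SQ1-treated cells, and 8305 and 2629 on the pravastatin arrays. Cyp2c23 fell by 2.22 ± 0.08 with SQ1 or 4.66-fold (adjusted p = 1.2e-13), and by 1.56 ± 0.08 with pravastatin or 2.95-fold (adjusted p = 8.7e-11). The difference of −0.66 ± 0.12 was called (adjusted p = 2.2e-04, 95% interval −0.91 to −0.41). It stood at −0.07 (adjusted p = 0.61) when 15 arrays were scaled to 1 spread.

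The log2 value of Cyp2e1 ran from −2.51 over a median of −2.01 to −1.52 on the SQ1 arrays, and from −2.28 over −1.69 to −0.78 on the pravastatin arrays. The ranges overlapped, and replicate 1 of pravastatin gave the smallest fall. Cyp2e1 fell by 2.0 ± 0.13 with SQ1 or 4.00-fold (adjusted p = 2.5e-10), and by 1.66 ± 0.13 with pravastatin or 3.16-fold (adjusted p = 1.8e-08). The difference between the drugs was −0.34 ± 0.18 and was not called (adjusted p = 0.16, 95% interval −0.73 to 0.05). With the replicate block it was called, at adjusted p = 0.034 with a random block and 0.0020 with a fixed one, as it was with a term for scan day (adjusted p = 0.0078). Scaling 15 arrays to 1 spread turned it to 0.35 (adjusted p = 0.030).

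Cyp2t1, which lies beside the genes of the families Cyp2a, Cyp2f and Cyp2s on chromosome 1, was the one gene of the set that rose by at least 1.5-fold with SQ1, and it rose with both drugs. Its log2 value was 1.03 on the lowest SQ1 array, 1.39 at the median and 1.77 on the highest. On the pravastatin arrays it was 1.37, 1.57 and 2.06. All 16 arrays were high and the ranges of the drugs overlapped. The gene rose by 1.40 ± 0.05 with SQ1 or 2.64-fold (adjusted p = 1.4e-13), and by 1.63 ± 0.05 with pravastatin or 3.09-fold (adjusted p = 6.0e-14). The drugs differed by −0.23 ± 0.08 (adjusted p = 0.022), a call that ended without SQ1 replicate 3 (adjusted p = 0.0502), without SQ1 replicate 7 (adjusted p = 0.0505), with no dye term (adjusted p = 0.12) and on the first scan day alone (adjusted p = 0.0528). With 15 arrays scaled to 1 spread it was −0.68 (adjusted p = 6.1e-04).

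**Figure D2:**
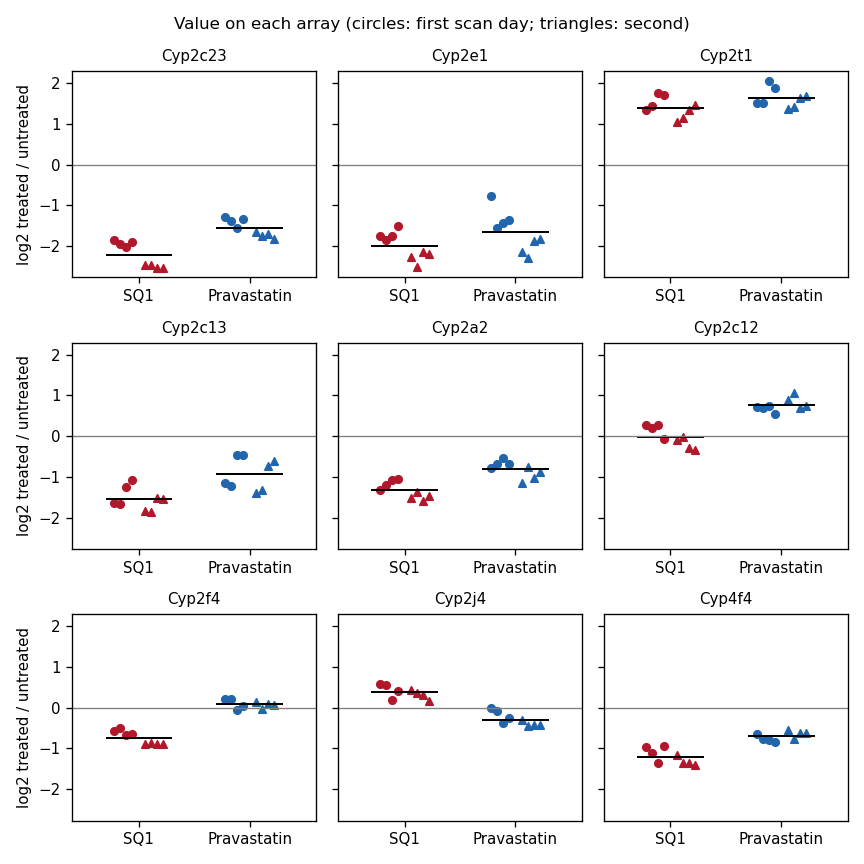
Log2 treated over untreated on every array for 9 of the genes, with circles for the first and triangles for the second scan day, and a bar at the mean of 8 arrays. Cyp2t1 was above 0 on all 16 arrays, Cyp2c12 above 0 on all 8 pravastatin arrays and on both sides of it with SQ1, and Cyp2j4 was above 0 with SQ1 and below it with pravastatin.

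Cyp2c12 and Cyp2c13 lie side by side in the Cyp2c cluster of chromosome 1, and with pravastatin they moved in opposite directions. In the adult rat liver Cyp2c13 is made in males and Cyp2c12 in females. Cyp2c13 ran from −1.87 over −1.59 to −1.08 on the SQ1 arrays and from −1.38 over −0.94 to −0.46 on the pravastatin arrays. All 16 arrays were below 0, and with either drug the 4 arrays of one dye orientation lay below the 4 of the other. It fell by 1.55 ± 0.05 with SQ1 or 2.93-fold (adjusted p = 4.2e-14) and by 0.92 ± 0.05 with pravastatin or 1.89-fold (adjusted p = 3.0e-10), and the difference of −0.63 ± 0.08 was called (adjusted p = 3.3e-06). Scaling 15 arrays to 1 spread left a difference of −0.29 (adjusted p = 0.0026).

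Cyp2c12 rose with pravastatin, with values from 0.54 over 0.73 to 1.06, or 0.76 ± 0.06 and 1.69-fold in the fit (adjusted p = 1.2e-08). With SQ1 it lay on both sides of 0, from −0.35 over −0.04 to 0.26, at −0.01 ± 0.06 in the fit (adjusted p = 0.88). No SQ1 array reached the lowest pravastatin array, and the drugs differed by −0.77 ± 0.08 (adjusted p = 6.4e-07), or −0.51 on the first scan day alone. The SQ1 value was 0.16 on the first scan day (adjusted p = 0.027) and −0.19 on the second (adjusted p = 8.3e-04), each called within its day, and the difference between the days was called too (adjusted p = 0.0034). The probes could take up transcripts of near neighbours in the Cyp2c cluster, which are close in sequence.

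The 250 bases before the start of 5 genes that carry these results are shown, read from RefSeq promoters of assembly GRCr8, which held 33 of the 39 genes. Cyp2c12 and Cyp2c13 are shown as neighbours that moved apart, Cyp2c23 and Cyp2e1 as the genes with the deepest falls, and Cyp2t1 as the gene with the largest rise. The start is that of the promoter table, and for Cyp2c12 and Cyp2t1 the whole window, and for Cyp2c13 and Cyp2c23 part of it, lies within the gene as RefSeq outlines it. The windows are chr1:248677035-248677284 on the minus strand for Cyp2c12, chr1:248787189-248787438 on the minus strand for Cyp2c13, chr1:252863068-252863317 on the minus strand for Cyp2c23, chr1:205269717-205269966 on the plus strand for Cyp2e1 and chr1:91575260-91575509 on the plus strand for Cyp2t1. Capitals mark matches, on either strand, to the sterol response element TCACNCCAC, the HNF4 motif CAAAGTCCA, the C/EBP motif TTGCNNAA, the HNF3 motif TGTTTAC, the TATA box TATAAA and the CCAAT box CCAAT.
Cyp2c12: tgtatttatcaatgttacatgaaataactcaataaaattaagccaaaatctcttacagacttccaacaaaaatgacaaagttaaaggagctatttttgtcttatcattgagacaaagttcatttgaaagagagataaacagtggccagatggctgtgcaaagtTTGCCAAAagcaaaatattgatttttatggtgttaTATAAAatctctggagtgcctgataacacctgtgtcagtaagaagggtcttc
Cyp2c13: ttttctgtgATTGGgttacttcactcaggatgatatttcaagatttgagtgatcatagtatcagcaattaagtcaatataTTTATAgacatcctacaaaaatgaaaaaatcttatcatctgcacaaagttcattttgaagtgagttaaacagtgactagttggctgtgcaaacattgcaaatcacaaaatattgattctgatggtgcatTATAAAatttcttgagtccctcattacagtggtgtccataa
Cyp2c23: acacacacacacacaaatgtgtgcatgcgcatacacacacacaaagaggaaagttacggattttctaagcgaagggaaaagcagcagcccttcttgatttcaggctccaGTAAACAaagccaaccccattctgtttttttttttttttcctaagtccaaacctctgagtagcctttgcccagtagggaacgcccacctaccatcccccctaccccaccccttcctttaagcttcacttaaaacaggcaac
Cyp2e1: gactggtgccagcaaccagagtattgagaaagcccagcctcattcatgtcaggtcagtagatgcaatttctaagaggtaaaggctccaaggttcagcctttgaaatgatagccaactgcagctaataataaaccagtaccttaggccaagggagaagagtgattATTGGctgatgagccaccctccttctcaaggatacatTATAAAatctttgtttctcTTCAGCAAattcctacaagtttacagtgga
Cyp2t1: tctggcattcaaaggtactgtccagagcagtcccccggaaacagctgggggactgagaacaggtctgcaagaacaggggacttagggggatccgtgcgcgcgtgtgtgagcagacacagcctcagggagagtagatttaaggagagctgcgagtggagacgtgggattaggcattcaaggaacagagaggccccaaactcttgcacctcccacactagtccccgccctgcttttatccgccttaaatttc

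The promoter of Cyp2c12 held a TATA box 52 to 47 bases and a C/EBP match 87 to 80 bases before the start, and that of Cyp2c13 a TATA box 41 to 36 bases before it, a second TATA match farther out and a CCAAT box. Cyp2e1 had a TATA box, a CCAAT box and a C/EBP match, Cyp2c23 had 1 HNF3 match, and the window of Cyp2t1 held none of the 6 motifs. No 2 matches of different motifs overlapped in any of these windows. Over the 35 windows of the 33 genes (Cyp2r1 and Cyp4f18 have 2 starts each), 12 held TATAAA, 20 CCAAT, 7 the C/EBP motif, 2 the HNF3 motif, and 0 the sterol response element or the HNF4 motif. Among all 33469 promoter windows of the same length, 12.9% held TATAAA, 34.0% CCAAT, 9.22% the C/EBP motif, 3.21% the HNF3 motif, 0.974% the sterol response element and 0.338% the HNF4 motif. A match describes letters in a window, and a window without a match says only that the letters are not there.

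Each gene was assigned a role by the start of its symbol, with Cyp2c23 placed among the fatty acid genes. The genes placed under foreign compound metabolism made up the largest group. Of 19 on the array, 15 were measured, of which 11 (73.3%) were lower and 3 (20%) higher with SQ1, and likewise 11 lower and 3 higher with pravastatin. Of all genes, 31.2% were lower and 32.7% higher with SQ1, and 19.7% and 19.4% with pravastatin. The median was −0.59 with SQ1 and −0.32 with pravastatin. The 3 higher genes were Cyp2t1, Cyp2c22 and Cyp2s1 with SQ1, and Cyp2t1, Cyp2c12 and Cyp2s1 with pravastatin. The 4 genes left out as dim were Cyp1b1, Cyp2a3, Cyp2b12 and Cyp2g1, which are known mainly from tissues other than liver.

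Cyp2a2, a testosterone hydroxylase of the male rat liver, ran from −1.59 over −1.34 to −1.06 on the SQ1 arrays and from −1.15 over −0.77 to −0.54 on the pravastatin arrays. All 16 arrays were below 0 and the ranges of the drugs overlapped. It fell by 1.33 ± 0.06 with SQ1 or 2.51-fold (adjusted p = 4.0e-12) and fell by 0.81 ± 0.06 with pravastatin or 1.76-fold (adjusted p = 2.0e-08), a difference of −0.52 ± 0.09 (adjusted p = 1.9e-04) that was −0.21 (adjusted p = 0.0533) with 15 arrays scaled to 1 spread. Cyp2a1, its relative that is more abundant in females, fell by 0.59 ± 0.06 with SQ1 (adjusted p = 2.0e-07) and by 0.50 ± 0.06 with pravastatin (adjusted p = 6.0e-06). The difference between the drugs was not called for Cyp2a1 (95% interval −0.28 to 0.10, adjusted p = 0.49).

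Cyp2f4, known for the activation of naphthalene in the lung, had groups that lay well apart. Its log2 value was −0.90 on the lowest SQ1 array, −0.76 at the median and −0.49 on the highest, and −0.04, 0.09 and 0.23 on the pravastatin arrays. The ranges did not overlap. Cyp2f4 fell by 0.74 ± 0.04 with SQ1 or 1.67-fold (adjusted p = 8.4e-11), and stood at 0.09 ± 0.04 with pravastatin (adjusted p = 0.12). The difference was −0.83 ± 0.06 (adjusted p = 1.0e-08, 95% interval −0.96 to −0.70). It was the largest between the drugs in the model of all 16 arrays. Cyp2c12 had the larger one with 15 arrays scaled to 1 spread, at −0.90 against −0.72, and on the second scan day alone, at −1.03 against −0.96. The pravastatin value passed the test with median centring (0.14, adjusted p = 0.0082), with a term for scan day (adjusted p = 0.041) and on the first scan day alone (adjusted p = 0.0461). Cyp2f4 and Cyp2t1 are neighbours, and their values with SQ1 had opposite signs.

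The 5 measured genes of the Cyp2d family, whose human relative metabolises many basic drugs, were all lower with both drugs. Cyp2d5 fell by 0.73 ± 0.05 with SQ1 and 0.31 ± 0.05 with pravastatin, and Cyp2d1 by 0.72 ± 0.05 and 0.32 ± 0.05, with the difference between the drugs called for both (adjusted p = 1.2e-04 and 1.8e-04). On each of the 16 arrays the values of Cyp2d1 and Cyp2d5 lay within 0.054 of each other. These genes are close in sequence, and transcripts of one may bind the probe of the other. Cyp2d3 went the other way between the drugs. It ran from −0.74 over −0.49 to −0.25 on the SQ1 arrays and from −1.10 over −0.79 to −0.57 on the pravastatin arrays, with overlap, and fell by 0.50 ± 0.06 and 0.78 ± 0.06 (adjusted p = 1.9e-06 and 3.0e-08). Its difference of 0.28 ± 0.09 was called (adjusted p = 0.019), and its SQ1 value was −0.31 on the first scan day and −0.69 on the second. Cyp2d2 and Cyp2d4 fell by 0.50 ± 0.04 and 0.40 ± 0.04 with SQ1 and by 0.52 ± 0.04 and 0.47 ± 0.04 with pravastatin. Their differences were not called, with 95% intervals of −0.08 to 0.14 and −0.05 to 0.19, but were with 15 arrays scaled to 1 spread (0.20 and 0.19, adjusted p = 0.0018 and 0.010).

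Cyp2b3, a constitutive liver enzyme that phenobarbital is known not to induce, fell by 0.65 ± 0.08 with SQ1 (adjusted p = 6.5e-07) and by 0.32 ± 0.08 with pravastatin (adjusted p = 0.0030). On the first scan day alone its values were −0.42 (adjusted p = 9.0e-05) and −0.14 (adjusted p = 0.092), and on the second −0.88 and −0.49. The difference of −0.33 ± 0.11 (adjusted p = 0.021) was −0.14 (adjusted p = 0.28) with 15 arrays scaled to 1 spread. Cyp2c22 was at 0.41 ± 0.06 with SQ1 (adjusted p = 9.5e-06) and −0.16 ± 0.06 with pravastatin (adjusted p = 0.040). With either drug the 4 arrays of one dye orientation lay below the 4 of the other. For SQ1 they ran from −0.17 to 0.28 in one orientation and from 0.67 to 0.93 in the other. The pravastatin call for Cyp2c22 rested on the settings: its adjusted p was 0.14 without pravastatin replicate 7, 0.13 without replicate 6, 0.097 without replicate 3 and 0.086 without replicate 2. With no dye term it was 0.32. Cyp2s1, an enzyme of epithelia, was at 0.31 ± 0.04 with SQ1 (adjusted p = 5.6e-07), and its other 2 probes gave 0.11 and 0.13. With pravastatin it was at 0.12 ± 0.04 (adjusted p = 0.015), and the other probes gave 0.00073 and 0.042. That call ended without pravastatin replicate 3 (adjusted p = 0.0553), 7 (adjusted p = 0.0504) or 8 (adjusted p = 0.0522), with the mean of its probes (0.05, adjusted p = 0.093), with median centring (adjusted p = 0.069), with slide as a random block (adjusted p = 0.083) and on the first scan day alone (adjusted p = 0.22).

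Of the 14 genes that act on fatty acids and eicosanoids, 8 (57.1%) were lower and 4 (28.6%) higher with SQ1, where 31.2% and 32.7% of all genes were. With pravastatin 9 (64.3%) were lower and 2 (14.3%) higher, where 19.7% and 19.4% of all genes were. The median was −0.13 with SQ1 and −0.27 with pravastatin. Those called higher with SQ1 were Cyp4f17, Cyp2j4, Cyp4b1 and Cyp2j10, and with pravastatin Cyp4f17 and Cyp2j10. The call of Cyp4b1, at 0.25 ± 0.08 (adjusted p = 0.013), ended without SQ1 replicate 3 (adjusted p = 0.0516) or replicate 7 (adjusted p = 0.0505), and its first scan day gave 0.05 against 0.46 in the second.

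In the Cyp4f family, whose members hydroxylate leukotrienes and arachidonic acid at the end of the chain, the falls were largest for Cyp4f4 and Cyp4f1. Cyp4f4 ran from −1.41 over −1.25 to −0.94 on the SQ1 arrays and from −0.84 over −0.71 to −0.54 on the pravastatin arrays. The ranges did not overlap. It fell by 1.21 ± 0.05 or 2.31-fold (adjusted p = 3.8e-13) and by 0.70 ± 0.05 or 1.63-fold (adjusted p = 4.1e-09), a difference of −0.50 ± 0.07 (adjusted p = 1.5e-05) that was −0.33 on the first scan day. Cyp4f1 also separated, from −1.19 to −0.74 against −0.55 to −0.37, and fell by 0.95 ± 0.04 and 0.48 ± 0.04 (adjusted p = 1.2e-12 and 8.2e-08), with a difference of −0.47 ± 0.06 (adjusted p = 5.3e-06) that was −0.30 on the first scan day. Cyp4f17 rose by 0.50 ± 0.04 and 0.44 ± 0.04, while Cyp4f40 fell by 0.53 ± 0.03 and 0.31 ± 0.03 and Cyp4f6 by 0.28 ± 0.04 and 0.25 ± 0.04. Cyp4f5 was at −0.01 ± 0.04 with SQ1 (adjusted p = 0.79) and −0.13 ± 0.04 with pravastatin (adjusted p = 0.030). The pravastatin call of Cyp4f5 ended without any 1 of replicates 1, 3, 4, 5, 7 and 8. For that gene the difference between the drugs was called with a fixed replicate block (adjusted p = 0.022).

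The Cyp2j genes, which make epoxides of arachidonic acid, moved in different directions. Cyp2j3 ran from −1.11 over −0.92 to −0.73 on the SQ1 arrays and from −0.55 over −0.41 to −0.35 on the pravastatin arrays, so that the drugs did not overlap. It fell by 0.92 ± 0.03 with SQ1 (adjusted p = 9.6e-15) and by 0.44 ± 0.03 with pravastatin (adjusted p = 1.4e-09), a difference of −0.48 ± 0.04 (adjusted p = 4.0e-08), and its second probe gave −0.96 and −0.42. Cyp2j4 was above 0 on all SQ1 arrays, from 0.18 over 0.38 to 0.59, and below 0 on all pravastatin arrays, from −0.45 over −0.34 to −0.01. It rose by 0.38 ± 0.04 with SQ1 (adjusted p = 3.9e-07), fell by 0.29 ± 0.04 with pravastatin (adjusted p = 3.4e-05, −0.18 on the first scan day) and differed by 0.67 ± 0.06 (adjusted p = 9.3e-08). The second Cyp2j4 probe gave 0.31 and −0.33. Cyp2j10 rose by 0.20 ± 0.04 with SQ1 and 0.22 ± 0.04 with pravastatin, with a difference between −0.15 and 0.10 (95% interval), and its pravastatin value was not called on the first scan day alone (0.15, adjusted p = 0.13).

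The other genes of the group moved less. Cyp4v3, a fatty acid hydroxylase, fell by 0.13 ± 0.04 with SQ1 (adjusted p = 0.0084) and by 0.32 ± 0.04 with pravastatin (adjusted p = 5.8e-06). The SQ1 call of Cyp4v3 ended with median centring (−0.07, adjusted p = 0.30) and on the second scan day alone (−0.08, adjusted p = 0.0553). Cyp4x1 was at −0.13 ± 0.02 with SQ1 over 7 arrays, since its spot on replicate 2 was non-uniform, and at −0.02 ± 0.02 with pravastatin (adjusted p = 1.2e-04 and 0.61). On the first scan day alone the SQ1 value of Cyp4x1 was not called (adjusted p = 0.11). Cyp4f18 was not called with either drug, and its brightness lay near the background limit. Cyp4x1 and Cyp4b1 were dim too, though above background in 32 and 31 channels. In untreated cells of the SQ1 arrays the median brightness was 122 for Cyp4x1, 123 for Cyp4b1 and 114 for Cyp4f18.

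Of the 6 genes that act on vitamins A and D or on oxysterols, 5 were measured, with 3 (60%) lower and 1 (20%) higher with either drug. Of all genes, 31.2% were lower and 32.7% higher with SQ1, and 19.7% and 19.4% with pravastatin. Cyp26a1 and Cyp26b1, which break down retinoic acid, fell by 0.59 ± 0.08 and 0.54 ± 0.06 with SQ1 (adjusted p = 3.6e-06 and 3.5e-07) and by 0.51 ± 0.08 and 0.20 ± 0.06 with pravastatin (adjusted p = 6.3e-05 and 0.011). With no background subtraction Cyp26a1 was at −0.36 and −0.32, and with pravastatin it was −0.26 on the first scan day and −0.76 on the second. Cyp26b1 with pravastatin was at −0.04 on the first scan day (adjusted p = 0.54). Cyp39a1, a hydroxylase of oxysterols in the liver, ran from −1.27 over −0.57 to −0.49 on the SQ1 arrays and from −0.84 over −0.60 to −0.36 on the pravastatin arrays, with overlap. It fell by 0.75 ± 0.08 and 0.57 ± 0.08 (adjusted p = 1.4e-07 and 1.5e-05), and the difference of −0.18 ± 0.11 was not called (adjusted p = 0.23), except with a fixed replicate block (adjusted p = 0.027). Cyp2r1, a vitamin D hydroxylase of the liver, rose by 0.16 ± 0.03 with SQ1 and by 0.29 ± 0.03 with pravastatin (adjusted p = 1.7e-04 and 9.6e-07). Cyp27b1, which completes the active vitamin D hormone in the kidney, was at −0.04 ± 0.03 and −0.01 ± 0.03 and was not called.

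Of the 6 genes of steroid hormone synthesis, 4 were measured. Cyp17a1, a hydroxylase and lyase of androgen synthesis, ran from 0.09 over 0.20 to 0.31 on the SQ1 arrays and from 0.32 over 0.51 to 0.79 on the pravastatin arrays. The ranges did not overlap, and the gene rose by 0.20 ± 0.04 with SQ1 (adjusted p = 2.4e-04) and by 0.55 ± 0.04 with pravastatin (adjusted p = 7.6e-09), with a difference of −0.34 ± 0.06 (adjusted p = 1.0e-04). Cyp21a1, which acts in corticosteroid synthesis, was at −0.12 ± 0.04 with SQ1 (adjusted p = 0.0080) and 0.06 ± 0.04 with pravastatin (adjusted p = 0.24). Cyp11a1, the side-chain cleavage enzyme of cholesterol, was at −0.07 ± 0.03 with SQ1 (adjusted p = 0.0472) and above background in 15 of 32 channels. That call ended in most settings, the random replicate block among them (adjusted p = 0.069). Cyp11b3 was not called with either drug. Its second probe gave 0.12 ± 0.04 with SQ1 and −0.01 ± 0.04 with pravastatin. The chosen Cyp11b3 probe was dim, with a median brightness of 133 in untreated and 129 in SQ1-treated cells. Cyp20a1, for which no role was assigned, rose by 0.49 ± 0.03 with SQ1 (adjusted p = 1.5e-10) and was at 0.10 ± 0.03 with pravastatin (adjusted p = 0.018). The pravastatin call of Cyp20a1 ended without replicate 4 (adjusted p = 0.0504) or replicate 8 (adjusted p = 0.0523), with no dye term (adjusted p = 0.068), with slide as a random block (adjusted p = 0.067) and on the first scan day alone (adjusted p = 0.24).

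Set directly against each other, the drugs differed in 24 of the 39 genes, with 18 lower with SQ1 than with pravastatin and 6 higher, and 15 were not called. With the replicate block, which pairs arrays by control number, 20 were lower and 6 higher with a random block, which added Cyp2e1 and Cyp11a1 (−0.09, adjusted p = 0.028), and 20 lower and 7 higher with a fixed block, which added Cyp2e1, Cyp39a1 and Cyp4f5. With slide as a random block 15 were lower and 5 higher, without Cyp21a1, Cyp2r1, Cyp4x1 and Cyp4v3. Over all 20395 genes tested, the main fit called 19.5% lower, 18.5% higher and 38% either way, or 7760 genes. The random block called 9750 of them, the fixed block 9737, and slide as a random block 5609. The median difference was −0.12, against 0.00 over all genes, and without replicate 1 of pravastatin the counts were the same. With 15 arrays scaled to 1 spread, 12 were lower and 8 higher, where 6387 of all genes were called. That scaling left calls of −0.28 for Cyp4f1, −0.22 for Cyp4f4, −0.30 for Cyp2j3, −0.26 for Cyp2d5 and −0.24 for Cyp2d1, each nearer to 0 than before, and 0.52 for Cyp2d3. The 6 genes higher with SQ1 were Cyp2j4, Cyp2c22, Cyp20a1, Cyp2d3, Cyp2s1 and Cyp4v3, among which Cyp2d3 and Cyp4v3 were below 0 with both drugs. The difference of Cyp2r1, at −0.13 (adjusted p = 0.030), ended without any 1 of SQ1 replicates 4, 7 and 8 or pravastatin replicates 3, 4 and 6. With the drugs named as in the deposited value table, 6 genes would be lower and 17 higher with SQ1, and which naming is right is not known.

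**Figure D3:**
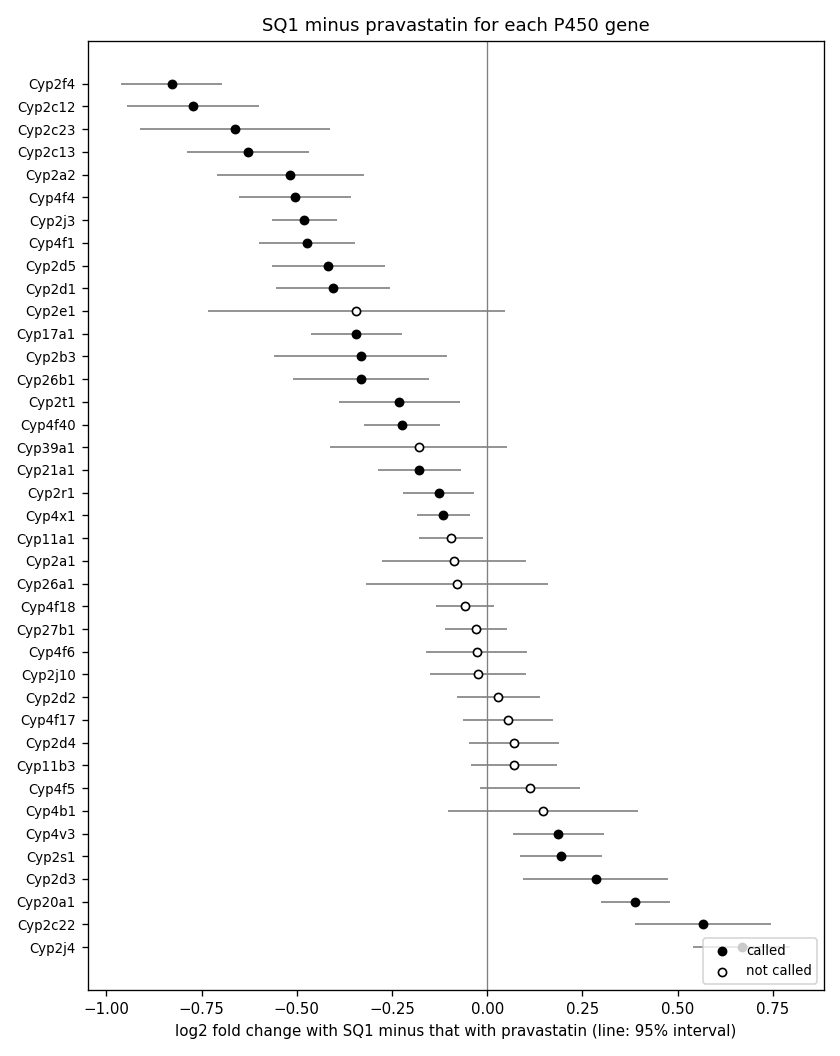
Log2 fold change with SQ1 minus that with pravastatin for each of the 39 genes, with its 95% interval from the model and filled points where called. Cyp2f4, Cyp2c12, Cyp2c23 and Cyp2c13 lie lowest and Cyp2j4 highest, at 0.67.

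The size of the change differed between the scan days for a share of the genes. With SQ1, 19 of the 39 genes differed between the days, 18 of them with the higher log2 value on the first day and 1 with the lower, where 14.9% of all genes differed. With pravastatin 10 differed, 9 of them higher on the first day, where 5.02% of all genes did. The median difference over the 39 genes was 0.20 with SQ1 and 0.04 with pravastatin, against 0.00 over all genes for both. Of the 18 genes called with a change of at least 1.5-fold in some comparison, 17 had the same sign and a call on each day with SQ1, Cyp2c12 being the exception. With pravastatin 16 did, the exceptions being Cyp2b3 and Cyp2f4. The 18 genes were chosen by their calls on the same arrays, so that choice in part fixed the agreement of the days, which is no replication. Scan day, slide and the set of control cultures cannot be told apart.

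**Figure D4:**
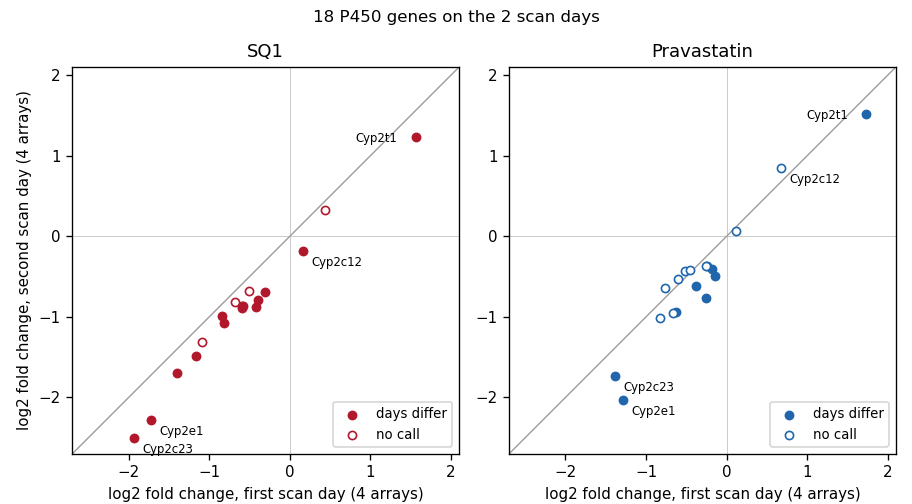
Log2 fold change on the second scan day against that on the first, 4 arrays each, for the 18 genes called with at least 1.5-fold change in a comparison, filled where the days differed by limma's test. With SQ1 the points lie below the line of equal values.

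The electron donors of the P450 enzymes and the genes of heme turnover were read as a list of 24 genes, all measured. With SQ1 13 (54.2%) were higher and 5 (20.8%) lower, where 32.7% and 31.2% of all genes were, with a median of 0.12 against 0.01 over all genes. With pravastatin 7 (29.2%) were higher and 7 lower, where 19.4% and 19.7% of all genes were, with a median of −0.01 against 0.00. Between the drugs 14 (58.3%) were higher with SQ1 and 4 (16.7%) lower, where 18.5% and 19.5% of all genes were. Por, the oxidoreductase that feeds electrons to P450 enzymes, ran from 0.35 over 0.69 to 1.06 with SQ1 and from −0.36 over −0.21 to −0.10 with pravastatin. The groups did not overlap, and Por rose by 0.69 ± 0.05 (adjusted p = 2.4e-09), fell by 0.21 ± 0.05 (adjusted p = 0.0040) and differed by 0.91 ± 0.08 (adjusted p = 3.3e-08). Cyb5b, the cytochrome b5 of the outer mitochondrial membrane, rose by 0.90 ± 0.02 and 0.83 ± 0.02, and Cyb5a, its relative of the endoplasmic reticulum, was at 0.06 ± 0.04 with SQ1 (adjusted p = 0.21) and fell by 0.45 ± 0.04 with pravastatin (adjusted p = 3.2e-08).

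Alas1, the rate-limiting enzyme of heme synthesis, rose by 0.45 ± 0.04 with SQ1 and fell by 0.28 ± 0.04 with pravastatin. Hmox1, which breaks heme down, ran from 1.00 over 1.44 to 1.90 on the SQ1 arrays and from −0.44 over −0.30 to −0.23 on the pravastatin arrays. It rose by 1.47 ± 0.06 with SQ1 and fell by 0.32 ± 0.06 with pravastatin, the largest difference of the list at 1.79. The enzymes between Alas1 and heme moved little, from −0.26 for Urod to 0.20 for Ppox with SQ1, and from −0.21 for Fech to 0.15 for Ppox with pravastatin.

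**Figure D5:**
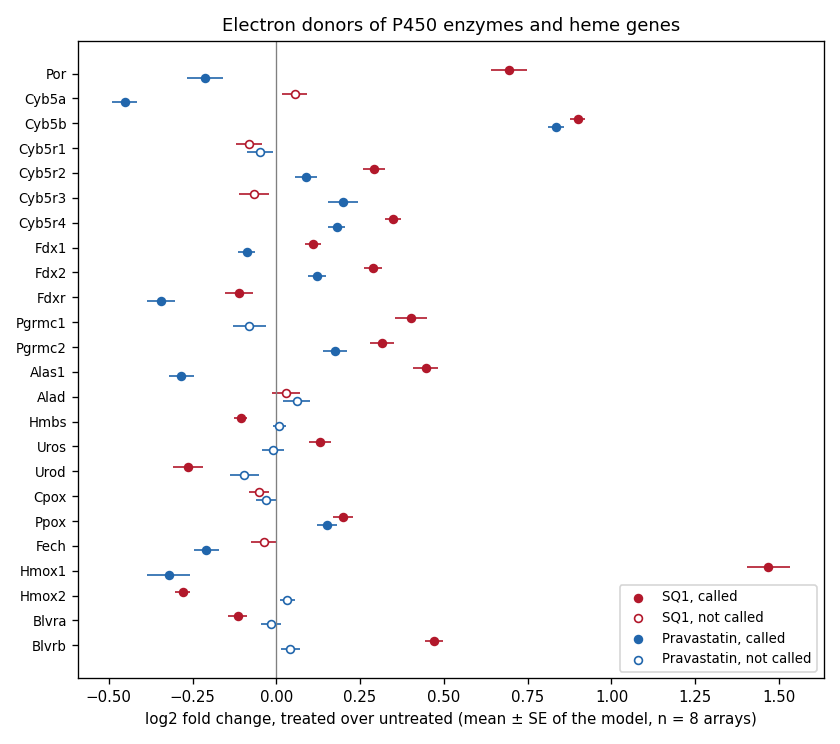
Log2 fold change of treated over untreated cells for 24 genes of electron transfer and heme turnover, with bars of 1 SE over 8 arrays per drug, filled where called. Hmox1, Por and Alas1 lie right of 0 with SQ1 and left of it with pravastatin.

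Among 14 regulators of P450 genes, all measured, 5 (35.7%) were higher and 6 (42.9%) lower with SQ1, where 32.7% and 31.2% of all genes were. With pravastatin 1 (7.14%) was higher and 6 (42.9%) lower, where 19.4% and 19.7% of all genes were. Foxa1, a pioneer factor of liver genes, fell by 1.44 ± 0.06 with SQ1 and by 0.33 ± 0.06 with pravastatin. Nr1i3, which encodes the receptor CAR, and Nr1i2, which encodes PXR, fell by 0.89 ± 0.15 and 0.72 ± 0.04 with SQ1 and by 0.66 ± 0.15 and 0.20 ± 0.04 with pravastatin. Nr1i3 varied widely between the SQ1 arrays, from −1.44 over −1.24 to 0.77, so not every array showed a fall. Stat5b, the signal carrier of growth hormone, rose by 0.44 ± 0.04 with SQ1 and was at 0.05 ± 0.04 with pravastatin (adjusted p = 0.28).

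General hepatocyte genes and genes of other liver cells moved beside the P450 genes. Of all genes, 31.2% were called lower and 32.7% higher with SQ1, and 19.7% and 19.4% with pravastatin. All 6 hepatocyte markers were lower with SQ1, from −0.08 for Hnf4a to −1.59 for Cps1, a urea cycle enzyme, and with pravastatin 4 were lower and 2 higher. The SQ1 arrays lay on both sides of 0 for Alb (−1.23 to 0.13), Ttr (−1.04 to 0.55), Tf (−1.46 to 0.29) and Hnf4a (−0.19 to 0.04). For Apoa1 and Cps1 every SQ1 array was below 0. The summed brightness of the 6 markers ran from 558524 to 922198 with SQ1 and from 776441 to 1081560 with pravastatin, against 751272 to 1274220 and 601210 to 1178750 in untreated cells of the same arrays. All 10 macrophage markers were lower with both drugs, and their summed brightness ran from 28537 to 44508 with SQ1 and from 24196 to 33347 with pravastatin, against 37943 to 71081 and 41620 to 64784 in the untreated cells of the same arrays. Of 9 markers of stellate cells and fibroblasts, 9 were lower with SQ1 and 3 with pravastatin, with sums of 18880 to 26869 and 29732 to 35760 against 34749 to 38255 and 34194 to 38640. Of 4 endothelial markers measured, 3 were lower with SQ1 and 1 with pravastatin, with sums of 994 to 1464 and 1276 to 2806 against 1395 to 2339 and 1327 to 2413. Of 4 cholangiocyte markers, 1 was higher and 1 lower with SQ1 and 2 were higher with pravastatin, with sums of 28485 to 34620 and 22562 to 32492 against 18936 to 23908 and 18136 to 24706. With SQ1 Epcam was higher, at 0.57, and Krt7 lower, at −0.15, while Krt19 (0.04) and Cftr (−0.01) were not called. With pravastatin Epcam (0.37) and Cftr (0.11) were higher. A sum is weighted to its brightest genes. The part of these cell types in the P450 values was not tested. In such bulk samples fewer cells of a type and less RNA per cell cannot be told apart.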

How the data were processed

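Scanner files of 16 arrays were used. The authors measured spots with Agilent Feature Extraction, version 10.7.1.1 per the file headers, and the deposited files give the intensity of each spot and its local background in both dyes. The deposited value table holds log2 ratios of treated over untreated, 1 column per array, with medians of −0.061 to 0.104. Its centring is not given in the sources used here.

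Median intensity was background-corrected by normexp with an offset of 50 and normalised by loess in limma 3.58.1 (R 4.3.3). Brightness values were taken from these signals after the mean intensities of the arrays were brought to a common distribution (limma's Aquantile). They include the offset of 50. Non-uniform spots were left out and spots of a probe averaged. Probes were named through their RefSeq accession, 17998 of 30367 with a symbol, and the brightest probe stood for a gene. Probes without a symbol went by the array's own name for their transcript, and each such name counts as a gene among the 20395 tested. Of the array's signals, 71.3% to 86.2% were well above background in the A555 channel and 72.4% to 85.2% in the A647 channel, no spot was saturated, and the number of arrays limits the precision.

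The model had a term per drug and a dye term, with two-sided tests. Over the 8 pairs of arrays with the same number, residuals correlated at 0.138 to 0.629. In 4 of the 8 pairs this exceeded the correlation with every array of the other drug that had another number. The pairing therefore rests on the common control number in the file names, and fits with the replicate block were run too. The members and lists were chosen with earlier results of these data known. Genes were described in full where called in a comparison with a change of at least 1.5-fold there (18 genes), and of the electron transfer and heme list likewise. The Feature Extraction design names build rn4, so promoter positions are those of GRCr8 and no probe positions are given.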

Additional observations from a re-analysis of the deposited data

Results flagged for a closer look

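No array stood far from the other 7 of its drug for any of the 18 genes with a change of at least 1.5-fold, by Dixon's criterion, which chance meets in about 1 group in 20. Of 36 tests of the first scan day against the second for these genes, 22 passed, all with the higher log2 value on the first day. Over all genes 14.9% passed with SQ1 and 5.02% with pravastatin, and scan day, slide and the set of control cultures cannot be told apart.

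With SQ1 the first day exceeded the second by 0.57 for Cyp2c23 (adjusted p = 1.1e-05), 0.57 for Cyp2e1, 0.46 for Cyp2b3 (adjusted p = 2.9e-04), 0.39 for Cyp2a1, 0.38 for Cyp2d3 and 0.35 for Cyp2c12. The excess was 0.33 for Cyp2a2, 0.32 for Cyp2t1, 0.30 for Cyp2f4, 0.29 for Cyp2c13, 0.29 for Cyp2d1, 0.27 for Cyp2d5, 0.26 for Cyp4f1 and 0.15 for Cyp2j3. Since most of these genes fell, the excess means a smaller fall on the first day. Cyp2t1 is the exception, with a larger rise there, and Cyp2c12 changed sign.

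With pravastatin the excess was 0.75 for Cyp2e1 (adjusted p = 0.0054), 0.51 for Cyp26a1, 0.35 for Cyp2b3, 0.34 for Cyp2c23 (adjusted p = 0.0030), 0.31 for Cyp2d3, 0.23 for Cyp2a1, 0.22 for Cyp2j4 and 0.21 for Cyp2t1. The values of Cyp2a1 and Cyp2j4 lay near the threshold, at adjusted p = 0.0488 and 0.0498.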

How the results depend on the processing

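The counts of P450 genes called with either drug stayed within 1.5 times their main value under every setting other than scaling all 16 arrays to 1 spread. Leaving out 1 array gave 9 to 10 higher and 23 to 24 lower genes with SQ1. Under the random replicate block 10 were higher and 23 lower with SQ1, where 12874 of all 20395 genes were called. Scaling all 16 arrays multiplied the narrow log ratios of pravastatin replicate 1 most. It gave 5 higher and 9 lower with SQ1, and 1 higher and 2 lower for the difference. The main fit called 13038 of all 20395 genes with SQ1, 7965 with pravastatin and 7760 for the difference. Scaling all 16 arrays called 6494, 5698 and 2543. In the electron transfer and heme list it gave 7 higher and 3 lower with SQ1, 4 higher with pravastatin, and 5 higher and 1 lower for the difference. It turned the differences between the drugs to 1.15 for Cyp2c23, 0.91 for Cyp2e1, 0.87 for Cyp2c13, 0.58 for Cyp2a2, 0.44 for Cyp4f4, 0.30 for Cyp4f1, 0.28 for Cyp2j3, 0.57 for Cyp39a1, 0.23 for Cyp26a1, 0.54 for Cyp2a1 and −0.93 for Cyb5b, none of them called. Scaling without that replicate, chosen after seeing the data, still turned the difference of Cyp2e1 (0.35), Cyp39a1 (0.011), Cyp26a1 (0.14), Cyp2a1 (0.084) and Cyb5b (−0.19).

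The SQ1 value of Cyp2c12 changed sign without a call, to 0.0012 with processed signals, 0.036 with median centring, 0.0004 and 0.0005 with either scaling, and −0.068 to 0.026 when 1 array was left out. It was 0.16 and called on the first scan day. The Cyp26a1 difference was 0.086 on the second scan day. In the electron transfer and heme list median centring left 2 lower genes with SQ1 and 2 for the difference. The first scan day alone gave 3 lower with SQ1 and 8 higher for the difference, and the second scan day 8 lower with SQ1. For these the cause was not tested. Over all 20395 genes, median centring called 11848 with SQ1 and 6082 for the difference. The first scan day alone called 10281 and 4801, and the second called 12786 with SQ1. The columns of the value table by label gave 17 higher and 6 lower for the difference, since the drugs are named the other way round there; which naming is right is not known. Genes near background, such as Cyp11a1, are limited by their signal.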
